A study of Rattus norvegicus with 8 samples.

Results

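The genes described here are 10 core components of transforming growth factor β (TGF-β) signaling in rat nucleus pulposus (NP) cells: the ligands Tgfb1, Tgfb2 and Tgfb3, the latency proteins Ltbp1 and Ltbp2, the receptors Tgfbr1, Tgfbr2 and Tgfbr3, and the intracellular SMADs Smad3 and Smad7. They were found by gene symbol, each symbol matched 1 row, and these 10 rows stand among 13250 genes that were tested. The study examined how SIRT6, a nuclear NAD-dependent deacetylase linked to aging, shapes gene expression in the NP, the hydrated centre of the intervertebral disc. Primary NP cells of adult Sprague Dawley rats, grown in DMEM with serum and antibiotics, were transduced with lentiviruses carrying either a control ShRNA (genotype SIRT6Ctrl/ShCtrl, here Sirt6-Ctrl, libraries S1 to S4) or a mixture of 3 ShSirt6 clones (SIRT6KD/ShSirt6, here Sirt6-KD, libraries S5 to S8). Both groups therefore carried a lentiviral ShRNA, and knockdown left part of the Sirt6 transcript in place. The series record speaks of cells from 4 rats and a control for each knockdown, but no label ties a Sirt6-KD library to its control. The groups were therefore compared unpaired. The p-values set group differences against the spread between these libraries, which includes any difference between rats.

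TGF-β ligands are secreted in a latent complex, in which the mature dimer is held by its own propeptide and tethered to the matrix by latent TGF-β binding proteins such as LTBP1. Once released, often by integrins, a ligand binds the type II receptor TGFBR2, which recruits and phosphorylates the type I receptor TGFBR1, while TGFBR3 (betaglycan) is a co-receptor that presents ligand. TGFBR1 phosphorylates SMAD2 and SMAD3, which enter the nucleus with SMAD4, and SMAD7 is an inhibitory SMAD that the pathway itself induces. In the disc the pathway is known for its part in matrix synthesis and in fibrosis.

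Depth was 31994838 to 40124813 counts in Sirt6-Ctrl and 32382957 to 36600792 in Sirt6-KD, so 3 counts, the limit that a count of 0 allows, correspond to 0.0748 to 0.0938 CPM (counts relative to the total of the library, for gene levels with TMM normalization, which evens out composition), and all 10 genes lay far above this. Reads of Sirt6, the targeted gene, numbered 1755 to 1964 per Sirt6-Ctrl library and 695 to 753 per Sirt6-KD library (log2 fold change -1.35, standard error 0.13, adjusted p = 0.000713 by edgeR). Synthetic ERCC spike-in RNAs made up 6.27% and 9.80% of S1 and S2, 3.08% and 2.97% of S3 and S4, and 2.15% to 2.47% of the Sirt6-KD libraries (p = 0.0286 by an exact permutation test, two-sided, the smallest that this design allows). S1 and S2 thus stood apart within Sirt6-Ctrl, and results are also given without them. Of 16 NP marker genes, 10 had a named row. Among them the matrix proteoglycan Acan had 158 to 2296 reads, the keratin Krt8 had 79 to 372 and the transcription factor Foxf1 had 1148 to 2059, whereas the notochordal markers T, Shh and Noto and the keratins Krt18 and Krt19 had no row under the names used. The labelled cell type could therefore be looked at through these 10 markers only, and whether those without a named row were expressed cannot be read here. The summed level of the 10 was 998 to 2815 CPM in Sirt6-Ctrl but 3241 to 4260 CPM in Sirt6-KD, most of it from the glucose transporter Slc2a1. The list did not move one way, with 5 of the 10 higher and 5 lower, 1 called higher (Slc2a1) and 2 called lower. Those were Krt8 (log2 fold change -1.32, adjusted p = 0.044, edgeR) and the carbonic anhydrase Car3 (-2.70, adjusted p = 0.0127). Acan was at 4.54 to 15.5 CPM in S1 to S3, at 55.7 CPM in S4 and at 9.80 to 18.7 CPM in Sirt6-KD. Annulus and tendon fibroblast markers, mostly Col1a1, summed to 11990 to 27952 CPM in Sirt6-Ctrl and to 9220 to 19095 CPM in Sirt6-KD. The part of these markers in the results was not tested. Of 10 macrophage and leukocyte markers, 3 had a row, summing to 12.7 to 30.6 CPM per Sirt6-Ctrl library and to 15.5 to 24.4 CPM per Sirt6-KD library, and of 8 endothelial markers only Tek had one, with at most 21 reads in any library. None of 5 erythroid markers had a named row. In these lists too, whether genes without a named row were expressed cannot be read here.

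Of the 10 genes, the type II receptor, the co-receptor and the receptor-activated SMAD had higher transcript levels after Sirt6 knockdown. Tgfbr2, Tgfbr3 and Smad3 rose 2.23-fold, 3.11-fold and 2.58-fold. The ligands Tgfb1, Tgfb2 and Tgfb3 had log2 fold changes of -0.39, -0.02 and 0.14, and none was called. Calls required a Benjamini-Hochberg adjusted p under 0.05 from the quasi-likelihood test of edgeR, adjusted over every row tested, together with more than a 1.5-fold difference. Under this rule 3 of the 10 genes were called higher, where 8.02% of all genes tested were, and 0 were called lower, where 10.7% of all genes were (18.7% in either direction). At an unadjusted p below 0.05 (edgeR), 5 of the 10 passed and all 5 were higher in Sirt6-KD. Of all 13250 genes, 4846 passed that limit in either direction. DESeq2 and limma-voom also called 3 of the 10 higher and 0 lower. Of all 13250 genes, DESeq2 called 1481 higher and 1667 lower, and limma-voom called 1591 higher and 1309 lower. The median log2 fold change of the 10 genes was 0.38, beside -0.016 over all genes tested. In such bulk samples, more transcript per cell and more cells of an expressing kind cannot be told apart.

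**Figure D1:**
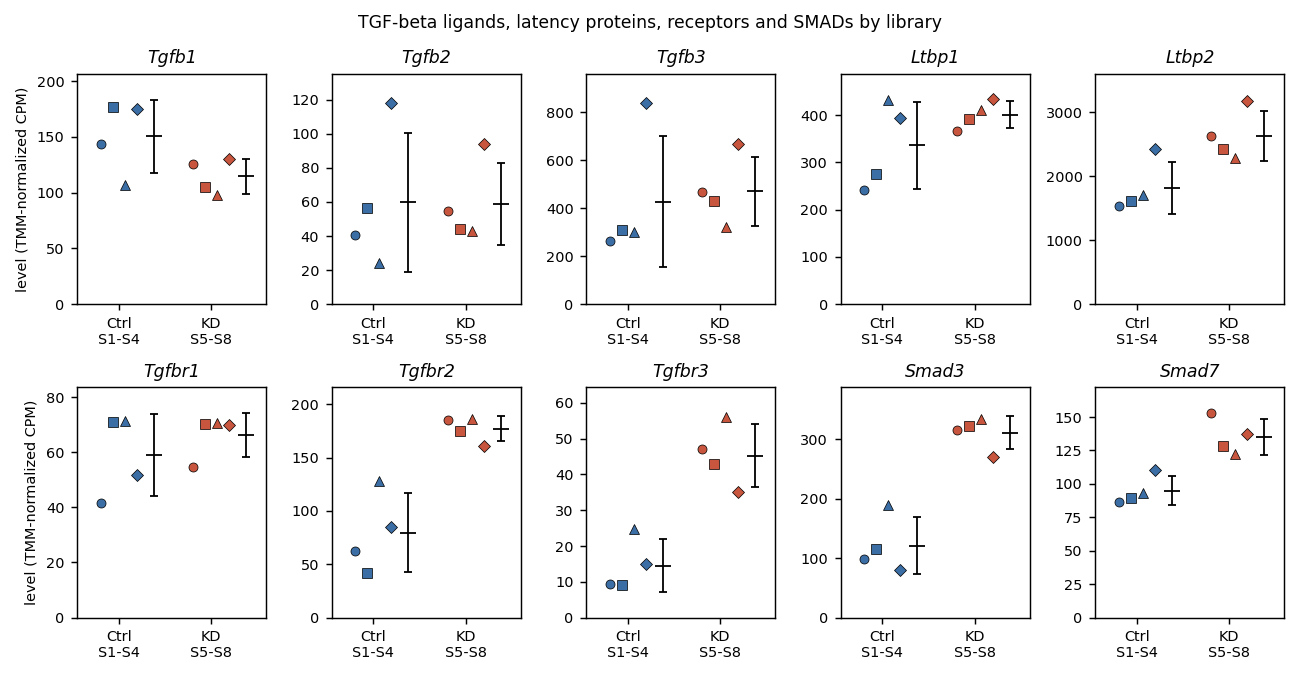
Level of each of the 10 genes (TMM-normalized CPM, linear axis from 0) in the Sirt6-Ctrl libraries (blue, circle S1, square S2, triangle S3, diamond S4) and the Sirt6-KD libraries (red, circle S5, square S6, triangle S7, diamond S8), with the mean and SD beside each group (n = 4). The groups do not overlap for Tgfbr2, Tgfbr3, Smad3 and Smad7, and overlap for the other genes.

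For the genes called, Tgfbr2, Tgfbr3 and Smad3, the sequences before the annotated starts are shown. Each is the 250 bases before the RefSeq start on GRCr8 (the counts were made on Rnor_6.0), written 5′ to 3′ on the strand of the gene, and capitals mark the GC box GGGCGG or its reverse complement CCGCCC, the element that SP1-type factors bind.
Tgfbr2, chr8:124761470-124761719, - strand: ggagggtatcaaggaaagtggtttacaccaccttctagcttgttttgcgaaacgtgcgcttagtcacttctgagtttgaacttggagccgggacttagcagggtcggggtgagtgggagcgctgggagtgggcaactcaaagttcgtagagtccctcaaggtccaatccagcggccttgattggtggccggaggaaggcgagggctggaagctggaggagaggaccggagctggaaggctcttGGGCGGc
Tgfbr3, chr14:2634044-2634293, + strand: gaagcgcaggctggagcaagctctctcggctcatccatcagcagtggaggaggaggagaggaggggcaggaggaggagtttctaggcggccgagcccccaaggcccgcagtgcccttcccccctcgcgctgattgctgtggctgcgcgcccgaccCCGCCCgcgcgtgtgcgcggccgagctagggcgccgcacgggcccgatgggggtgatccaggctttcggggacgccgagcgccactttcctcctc
Smad3, chr8:73132325-73132574, - strand: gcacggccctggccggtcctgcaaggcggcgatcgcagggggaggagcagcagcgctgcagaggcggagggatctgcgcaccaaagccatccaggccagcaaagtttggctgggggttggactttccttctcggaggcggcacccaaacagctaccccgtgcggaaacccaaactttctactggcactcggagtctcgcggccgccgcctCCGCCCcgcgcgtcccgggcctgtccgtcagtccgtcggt
All 10 genes had an entry. The GC box lay in this window of 6 of them (Tgfbr1, Tgfbr2, Tgfbr3, Smad3, Smad7 and Ltbp2) and in 30.5% of all 33469 windows of the same length. In the windows shown it began 7 bases before the start of Tgfbr2, 95 before that of Tgfbr3 and 40 before that of Smad3. Each of these windows held 1 such box, and those of Tgfbr1 and Smad7, which were not called, held 3 and 2. The SMAD-binding CAGAC box (CAGAC or GTCTG) was in none of the 3 windows shown, in those of Ltbp1 and Ltbp2 among the 10, and in 42.9% of all windows. Neither the AP-1 site TGANTCA nor the TATA box TATAAA, searched on both strands, was in any of the 10 windows, and they were in 6.3% and 12.9% of all windows. These matches describe letters in 1 annotated window per gene, and the start used in these cells was not measured.

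Among the receptors, Tgfbr2 (ENSRNOG00000013265), which encodes the ligand-binding type II kinase, was at 62.7, 41.8, 128 and 85.3 CPM in S1 to S4 and at 185, 175, 187 and 161 CPM in S5 to S8. All Sirt6-KD libraries lay above all Sirt6-Ctrl libraries, and within Sirt6-Ctrl the lowest levels were those of S1 and S2. The mean rose from 79.6 ± 37.1 to 177 ± 11.8 CPM (mean ± SD, n = 4 each), or by 1.15 on the log2 scale (standard error 0.28, adjusted p = 0.0182, edgeR). Without S1 and S2 it was 0.74 and still called (adjusted p = 0.0271). The call was lost when any of S1, S5, S6 or S7 alone was left out (adjusted p = 0.0517 to 0.063, log2 fold change 1.07 to 1.16), and over all alternatives the adjusted p ranged from 0.000632 to 0.149.

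Tgfbr3 (ENSRNOG00000002093), the gene of betaglycan, was the member with the largest log2 fold change. Its level was 9.31, 9.06, 24.8 and 15.0 CPM in S1 to S4 and 47.1, 42.9, 56.0 and 35.2 CPM in S5 to S8. The lowest Sirt6-KD library was above the highest Sirt6-Ctrl library, S3. The mean rose from 14.5 ± 7.36 to 45.3 ± 8.70 CPM (mean ± SD, n = 4 each), or by 1.64 on the log2 scale (standard error 0.32, adjusted p = 0.00835, edgeR). Leaving out single libraries gave 1.48 to 2.02, always called, and the value was 1.20 without S1 and S2 (adjusted p = 0.0198).

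Tgfbr1 (ENSRNOG00000007036), which encodes the type I kinase that phosphorylates SMAD2 and SMAD3, was at 41.4, 71.0, 71.5 and 51.6 CPM in Sirt6-Ctrl and at 54.5, 70.3, 70.8 and 69.8 CPM in Sirt6-KD. The groups overlapped over most of their range. The log2 fold change was 0.17, with a 95% interval from -0.25 to 0.60 (adjusted p = 0.553, edgeR), so the data leave room for a change of either sign, and the upper bound is just above the 1.5-fold threshold of 0.58 on the log2 scale. The spread of Tgfbr2 was 46.6% of the mean in Sirt6-Ctrl and 6.64% in Sirt6-KD, and that of Tgfbr1 25.3% and 11.9%.

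**Figure D2:**
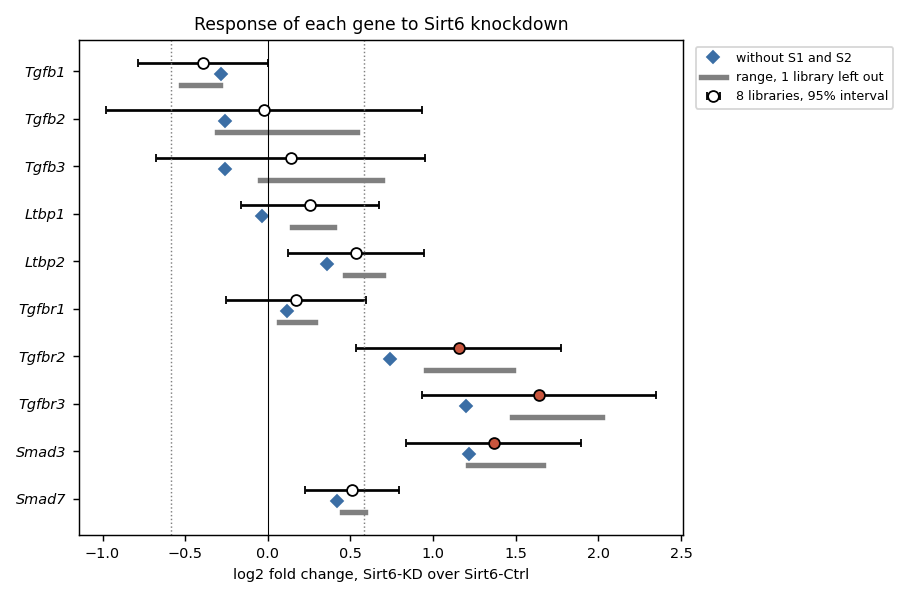
Log2 fold change on Sirt6 knockdown for each gene, with the 95% interval from edgeR's quasi-likelihood fit (circles, filled red where called higher), the value without S1 and S2 (blue diamonds) and the range with 1 library left out in turn (grey bars). Dotted lines mark a 1.5-fold change. Only Tgfbr2, Tgfbr3 and Smad3 are filled, and their values without S1 and S2 were 0.74, 1.20 and 1.22.

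Smad3 (ENSRNOG00000008620), the gene of the receptor-activated SMAD that binds DNA, was at 98.1, 116, 189 and 79.5 CPM in S1 to S4 and at 316, 322, 335 and 271 CPM in S5 to S8. No Sirt6-Ctrl library came near the Sirt6-KD range, and S3 was again the highest of them. The mean rose from 121 ± 48.0 to 311 ± 27.7 CPM (mean ± SD, n = 4 each), or by 1.37 on the log2 scale (standard error 0.24, adjusted p = 0.0058, edgeR). This was the smallest p among the 10 genes. It remained called whichever single library was omitted (1.21 to 1.67) and without S1 and S2 (1.22, adjusted p = 0.0326). The other SMADs of this arm were not called. Smad2, the partner of Smad3 at the receptor, had mean levels of 59.9 ± 6.59 and 60.6 ± 3.70 CPM (SD, n = 4 per group), which is a log2 fold change of 0.02 with a 95% interval from -0.27 to 0.30. Smad4, the common partner, had a log2 fold change of 0.35 with an interval from 0.01 to 0.70 (adjusted p = 0.128, edgeR), and in Sirt6-Ctrl S3 was well above the rest.

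Smad7 (ENSRNOG00000018359), the inhibitory SMAD, was at 86.3, 89.5, 93.3 and 110 CPM in S1 to S4 and at 153, 128, 122 and 137 CPM in S5 to S8. The groups did not overlap, as was the case for 4 of the 10 genes (Tgfbr2, Tgfbr3, Smad3 and Smad7) and for 30.4% of all genes tested. The means were 94.9 ± 10.8 and 135 ± 13.4 CPM (SD, n = 4 per group), a 1.43-fold difference. Its log2 fold change of 0.51 (standard error 0.13) had an adjusted p of 0.0201 by edgeR but stayed under the 1.5-fold threshold, so it was not called. Without S4 alone it was 0.59 and was called (adjusted p = 0.0156), and without S1 and S2 it was 0.42 (adjusted p = 0.0714).

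None of the ligand transcripts passed the test, and those of Tgfb2 and Tgfb3 varied widely within groups. Tgfb1 (ENSRNOG00000020652) was at 144, 177, 107 and 175 CPM in S1 to S4 and at 125, 105, 98.3 and 130 CPM in S5 to S8. S3 lay within the Sirt6-KD range and the other Sirt6-Ctrl libraries above it. The difference on the log2 scale was -0.39 (standard error 0.18, unadjusted p = 0.0501, adjusted p = 0.136, edgeR). Without S3 it was -0.53 with an adjusted p of 0.0207, under the fold threshold, and scaling by spike-in counts turned it to 0.62, or -0.32 once the median over all genes was subtracted.

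Tgfb2 (ENSRNOG00000002418) was at 40.4, 56.4, 24.3 and 118 CPM in Sirt6-Ctrl and at 54.4, 44.1, 43.0 and 93.7 CPM in Sirt6-KD. S4 and S8 were the highest of their groups. The means of 59.8 ± 40.9 and 58.8 ± 23.8 CPM (SD, n = 4 per group) differed by far less than the spread, and the log2 fold change of -0.02 had a wide 95% interval from -0.98 to 0.93. Its sign was not stable across alternatives, and without S4 it was 0.54 (adjusted p = 0.28, edgeR).

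Tgfb3 (ENSRNOG00000009867) was at 264, 310, 301 and 839 CPM in Sirt6-Ctrl and at 466, 429, 323 and 668 CPM in Sirt6-KD. S4 stood far above the other Sirt6-Ctrl libraries, and S8 was the highest in Sirt6-KD. The log2 fold change was 0.14 with an interval from -0.68 to 0.95. Without S4 it was 0.69 (adjusted p = 0.0539, edgeR), and without S1 and S2 it was -0.26. The summed level of the smooth muscle and pericyte markers (Myh11, Acta2, Tagln, Cnn1, Des and Notch3) was also highest in these same libraries, at 2694 CPM in S4 against 338 to 793 CPM in S1 to S3, and at 2193 CPM in S8 against 916 to 1147 CPM in S5 to S7. In S4 and S8 most of this sum came from Tagln and Acta2, and Myh11 and Cnn1 were also highest there. Des went the other way, lowest of its group in S4 (96.6 CPM) and in S8 (116 CPM). Notch3 had at most 61 reads in any library. Annulus and tendon fibroblast markers summed to 27952 CPM in S4 and 19095 CPM in S8, the highest of each group. Most of this was Col1a1, and Thy1, Mkx, Scx and Col5a1 were also highest of each group there. Pdgfra went the other way in S8, where it was lowest of Sirt6-KD (49.9 CPM). Col1a2 was highest of its group in S4 (2.59 CPM) and lowest of its group in S8 (1.45 CPM), but had at most 107 reads in any library. Acta2, Tagln, Cnn1, Col1a1, Col1a2 and Col5a1 are also among the TGF-β induced genes followed below. The NP marker Acan was likewise highest of each group in S4 and S8 (55.7 and 18.7 CPM). The summed NP markers went the other way and were lowest of each group there (998 and 3241 CPM). No label tells whether S4 and S8 came from the same rat. The part of these cell features in the ligand levels was not tested.

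Among 13177 other named genes tested, those with the level pattern over the 8 libraries most like each ligand, by Pearson r of log2 CPM, were Pfn1 (0.991), Ptms (0.988) and Cdca8 (0.977) for Tgfb1. For Tgfb2 they were Rspo3 (0.988), Mxra8 (0.970) and Pkig (0.959), and for Tgfb3 LOC102553018 (0.977), Bmp4 (0.977) and Pdc (0.969). These values describe 8 points that share libraries and normalization, and none of the 9 genes was called between the groups.

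Of the latency proteins, Ltbp1 (ENSRNOG00000033090), which tethers the latent ligand complex to the matrix, was at 241, 276, 433 and 395 CPM in Sirt6-Ctrl and at 367, 391, 411 and 433 CPM in Sirt6-KD. S3 and S4 lay within the Sirt6-KD range, and S1 and S2 below it. The log2 fold change was 0.25 with an interval from -0.16 to 0.67 (adjusted p = 0.364, edgeR), and -0.04 without S1 and S2. Ltbp2 (ENSRNOG00000012094), a microfibril-associated family member that differs from LTBP1 in not binding latent TGF-β, had the most reads of the 10 genes, 52116 to 99797 in Sirt6-Ctrl and 81078 to 107481 in Sirt6-KD. Its levels were 1532, 1612, 1710 and 2419 CPM against 2635, 2422, 2286 and 3181 CPM. S4 alone reached into the Sirt6-KD range. Its log2 fold change of 0.53 (standard error 0.19) had an adjusted p of 0.0632 by edgeR and was not called. It was called without S4 (0.70, adjusted p = 0.017), where the number of the 10 genes called higher was 5, and it was 0.36 without S1 and S2 (adjusted p = 0.209).

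Ratios of reads of a pair of genes within a library do not depend on how libraries are scaled, and the groups were compared over 9 such ratios with two-sided exact permutation tests. The ratio of Tgfbr1 to Tgfbr2 was 0.660, 1.70, 0.557 and 0.605 in Sirt6-Ctrl and 0.294, 0.402, 0.379 and 0.433 in Sirt6-KD. Every Sirt6-KD library was lower, and the log2 difference was -1.07 (p = 0.0286, adjusted p = 0.0857 over the 9 ratios, exact permutation test). S2 was far above the other Sirt6-Ctrl libraries, and without S1 and S2 the log2 difference was -0.64. The ratio of Tgfbr3 to Tgfbr2 was 0.149 to 0.217 in Sirt6-Ctrl and 0.218 to 0.300 in Sirt6-KD, a log2 difference of 0.47 with the same exact permutation p-values. The ranges came close to touching.

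The ratio of the inhibitory to the receptor-activated SMAD, Smad7 to Smad3, was 0.879, 0.773, 0.493 and 1.39 in Sirt6-Ctrl and 0.484, 0.398, 0.366 and 0.507 in Sirt6-KD. S3 fell within the Sirt6-KD range (log2 difference -0.93, exact permutation p = 0.0571, adjusted p = 0.129). The ratio of Ltbp2 to Tgfb1 was 10.7, 9.12, 16.1 and 13.8 in Sirt6-Ctrl and 21.0, 23.1, 23.2 and 24.4 in Sirt6-KD, without overlap, a log2 difference of 0.92 (exact permutation p = 0.0286, adjusted p = 0.0857). For the other 5 ratios (Tgfb1/Tgfb2, Tgfb1/Tgfb3, Tgfb2/Tgfb3, Ltbp1/Ltbp2 and Ltbp1/Tgfb1) the groups overlapped, with log2 differences from -0.64 to 0.67 and adjusted p-values from 0.206 to 0.629 in exact permutation tests. None of the 9 ratios passed an adjusted p of 0.05.

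**Figure D3:**
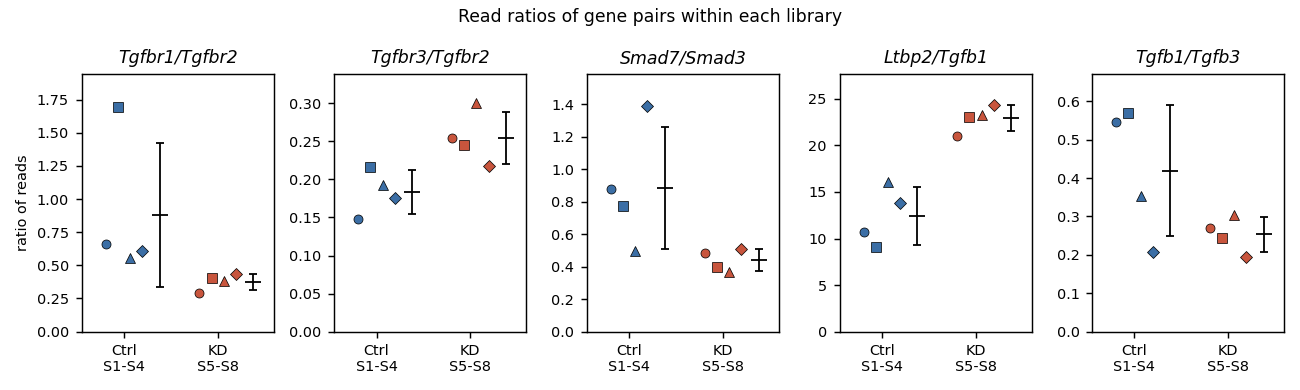
Ratio of reads of 5 gene pairs within each library (linear axis from 0) in Sirt6-Ctrl (blue) and Sirt6-KD (red), with symbols by library from left to right and the mean and SD beside each group (n = 4). The groups do not overlap for Tgfbr1/Tgfbr2, Tgfbr3/Tgfbr2 and Ltbp2/Tgfb1, while S3 falls within the Sirt6-KD range for Smad7/Smad3.

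Within Sirt6-Ctrl the called genes differed in how they ran with the spike-in share. Tgfbr2 and Tgfbr3 were lowest in S1 and S2, the libraries with the highest spike-in share, whereas Smad3 was lowest in S4, which had the lowest share of its group. The part of the spike-in share in these levels was not tested. With library sizes set by summed spike-in counts, all genes together had a median log2 fold change of 0.94, and none of the 10 genes was called. Tgfbr2, Tgfbr3 and Smad3 then had log2 fold changes of 1.88, 2.36 and 2.25, or 0.93, 1.42 and 1.31 relative to that median (edgeR adjusted p = 0.0885, 0.0783 and 0.0711).

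**Figure D4:**
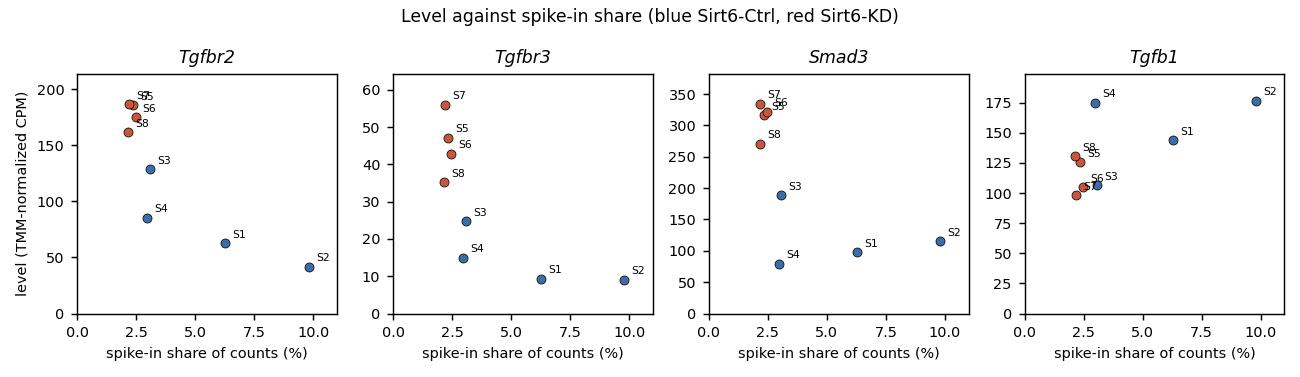
Level (TMM-normalized CPM) of Tgfbr2, Tgfbr3, Smad3 and Tgfb1 against the share of counts taken by ERCC spike-ins (%), 1 point per library (blue Sirt6-Ctrl, red Sirt6-KD). S1 and S2 lie at 6.27% and 9.80%, S3 and S4 at 3.08% and 2.97%, and the Sirt6-KD libraries at 2.15% to 2.47%. The levels of Tgfbr2, Tgfbr3 and Smad3 in S3 and S4 lie below those of all Sirt6-KD libraries.

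Genes around these 10 were followed in 5 lists. Of genes of latency and activation, 13 of 16 were tested, with 1 called higher and 1 lower, near the background of 8.02% and 10.7% of all genes, and a median log2 fold change of 0.50. Itgav, the αV integrin chain of the integrins that release TGF-β from latency, rose from 136 ± 71.4 to 332 ± 30.9 CPM (mean ± SD of 4 libraries), which is a log2 fold change of 1.28 (adjusted p = 0.0217, edgeR). Itgb5, a β chain that pairs with it, fell from 667 ± 124 to 347 ± 84.2 CPM (mean ± SD of 4 libraries), which is a log2 fold change of -0.94 (adjusted p = 0.0102, edgeR). In Sirt6-KD, S8 stood well above S5 to S7. The Itgav call was lost when any of S1, S5, S6, S7 or S8 was left out, and with S4 left out 4 genes of the list were called higher.

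Of 12 receptors and co-receptors outside the 10, 11 were tested, and 1 was called higher and 0 lower (8.02% and 10.7% of all genes). The higher call was thus near the background. Of those with negative fold changes, 0 had an unadjusted p below 0.05 (edgeR), and DESeq2 and limma-voom also called 0 lower. The median log2 fold change was 0.13. The gene called was Acvr1b, a type I activin receptor that also signals through SMAD2 and SMAD3, with a log2 fold change of 0.93 (adjusted p = 0.0229, edgeR) and with S3 inside the Sirt6-KD range. It was not called without S1 and S2, nor when S1, S5, S6 or S7 alone was left out. Eng, the co-receptor endoglin, had a log2 fold change of 0.33 with an interval from -0.05 to 0.71. Among 6 tested activin-type ligands and antagonists the median was 0.29, and Inhba alone was called, where 18.7% of all genes were called in either direction. Inhba, which encodes the activin A subunit, was at 55.4, 84.5, 197 and 218 CPM in S1 to S4 and at 416, 396, 376 and 441 CPM in S5 to S8, a log2 fold change of 1.55 (adjusted p = 0.0174, edgeR).

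Of 25 SMADs, partners and inhibitors outside the 10, 23 were tested, 4 were called higher and 1 lower (8.02% and 10.7% of all genes), and the median log2 fold change was 0.14. Among those called higher were 3 E3 ubiquitin ligases that act on SMADs and receptors. Smurf1 rose from 96.8 ± 30.4 to 204 ± 22.7 CPM, Smurf2 from 90.2 ± 24.7 to 163 ± 17.2 CPM, and Nedd4l from 35.5 ± 11.5 to 68.0 ± 7.38 CPM (SD, n = 4 per group), with log2 fold changes of 1.07, 0.85 and 0.94 (edgeR adjusted p = 0.0097, 0.0128 and 0.0158). For all 3 the groups did not overlap, as was the case for 6 of the 23 tested genes of the list and for 30.4% of all genes tested. The ligases Wwp1, Rnf111 and Trim33 of the same list were not called (log2 fold changes of 0.05, -0.15 and 0.50). Sp1, a factor that binds the GC box, rose with a log2 fold change of 0.69 (adjusted p = 0.0292, edgeR). S3 (134 CPM) was far above the other Sirt6-Ctrl libraries and above the Sirt6-KD library S8 (130 CPM), so the groups overlapped. Pmepa1, a TGF-β induced inhibitor that binds SMAD2 and SMAD3, fell from 429 ± 160 to 245 ± 38.9 CPM (mean ± SD of 4 libraries), which is a log2 fold change of -0.81 (adjusted p = 0.0492, edgeR). S3 (225 CPM) lay within the Sirt6-KD range, and the call of Pmepa1 was lost under most alternatives, among them leaving out S1 and S2. Skil, a corepressor of SMADs, had a log2 fold change of 0.91 (adjusted p = 0.0768, edgeR) although its groups did not overlap.

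Of 30 genes that TGF-β is known to induce in many cells, all tested, 6 were called higher and 4 lower and the others were not called, and the median log2 fold change was 0.042. Over all genes tested the shares were 8.02% higher and 10.7% lower, so the lower calls were near that background. Ccn2, a matricellular target, had a log2 fold change of 0.42 (adjusted p = 0.105, edgeR).

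Among the 6 called higher, Klf10, an early TGF-β inducible zinc finger factor, had a log2 fold change of 1.28, Snai1, a repressor of epithelial genes, 0.87, the cytokine Il11 1.48 and the clock-linked repressor Bhlhe40 0.65 (adjusted p = 0.00217, 0.0173, 0.0176 and 0.0212, edgeR). Il11 varied widely in Sirt6-KD, from 26.2 CPM in S8 to 89.6 CPM in S7, and S8 was close to S2, the highest Sirt6-Ctrl library (24.9 CPM). The 4 called lower were the matrix genes Postn and Col3a1 and the cell cycle inhibitors Cdkn1a and Cdkn2b. Postn fell from 239 ± 24.6 to 102 ± 12.8 CPM and Cdkn2b from 77.8 ± 20.4 to 31.2 ± 5.53 CPM (mean ± SD of 4 libraries), log2 fold changes of -1.23 and -1.32 (adjusted p = 0.00129 and 0.00435, edgeR). Those of Cdkn1a and Col3a1 were -1.75 and -1.38, and for Col3a1 S8 stood well above S5 to S7. Without S1 and S2 the list had 3 genes called higher, and without S4 it had 10.

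**Figure D5:**
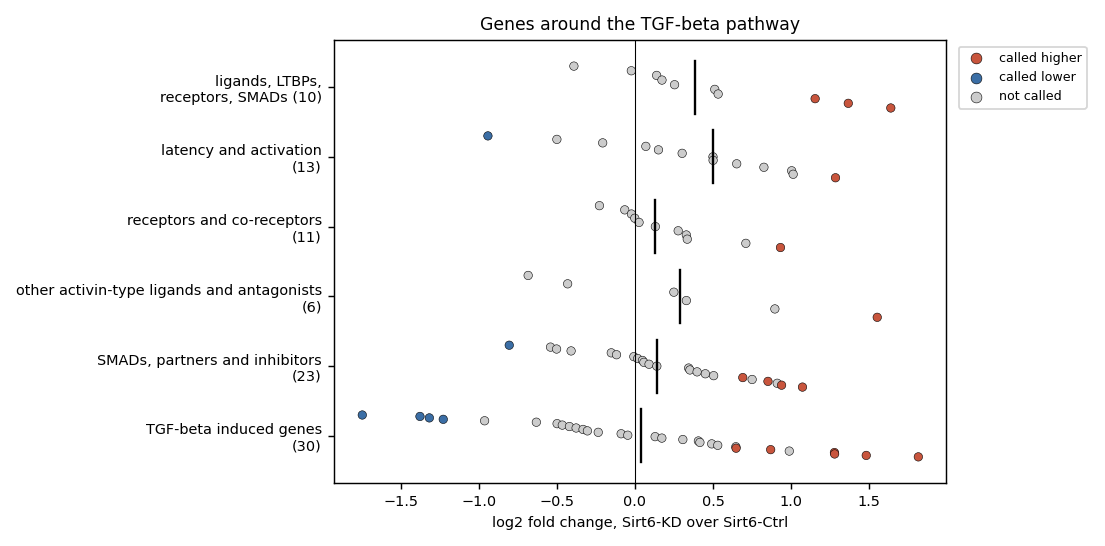
Log2 fold change on Sirt6 knockdown for the 10 genes and for the tested genes of 5 lists around the pathway, each point a gene (red called higher, blue called lower, grey not called), ordered within a list, with the median as a black bar. The number tested stands in parentheses, and the TGF-β induced genes hold 6 called higher and 4 called lower around a median of 0.042.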

How the data were processed

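RNA of 4 Sirt6-Ctrl and 4 Sirt6-KD libraries was sequenced. The authors deposited raw read counts per Ensembl gene and ERCC spike-in, without normalization (32975 rows, of which 92 were spike-ins). Per the labels, Trimmomatic 0.36, STAR 2.5.2b, featureCounts of Subread 1.5.2 and DESeq2 were used on Rnor_6.0, and whether counting used strand is not given in the sources used here, so reads of overlapping antisense genes cannot be told apart. A deposited comparison table served only to pair Ensembl IDs with gene names. Its 3 comparison columns (log2 fold change, p-value, adjusted p) and 8 columns of normalized values were not used.

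Groups were taken from the genotype label. Counts were filtered with edgeR's filterByExpr, which left 13313 rows (63 spike-ins), normalized by TMM and tested without pairing with edgeR 4.0.16 (glmQLFit and glmQLFTest, two-sided, R 4.3.3) with Benjamini-Hochberg adjustment over all rows. The standard error is the log2 fold change divided by the root of the F statistic. A call needed an adjusted p under 0.05 and more than a 1.5-fold difference. Ratios had 0.5 reads added to each count. Pearson r between genes was computed on log2 CPM (prior count 2). Since no molecular identifiers were counted, the limit of 3 counts covers counting error only. DESeq2 1.42.0, limma-voom (limma 3.58.1) and other alternatives were run, and the count tests were tested on simulated data. The genes and lists were chosen with earlier results of these data known. Named list genes were up to 4 called per direction by smallest p, and, whatever their values, Smad2, Smad4, Ccn2, Pmepa1, Skil and Eng, with 1 further gene of the rule not reported here. Levels were not compared between genes, since no transcript lengths of the build were used. Promoter sequences are those of RefSeq (GRCr8).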

Additional observations from a re-analysis of the deposited data

Results flagged for a closer look

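Gaps between libraries were examined in 86 sets of 4 values, for each named gene or ratio in each group. In 10 sets an extreme library lay apart from its nearest neighbour by more than Dixon's 95% limit, and about 4.3 (1 in 20) would do so by chance. The values are the gap as a share of the range. For Tgfb3 in Sirt6-Ctrl it was S4, the highest (0.920). In the same group, S3 was the highest for Sp1 (0.964), Smad4 (0.843), Snai1 (0.859) and the ratio of Ltbp1 to Ltbp2 (0.858), and S2 was the highest for the ratio of Tgfbr1 to Tgfbr2 (0.909). In Sirt6-KD, S5 was the lowest for Tgfbr1 (0.944), and S8 was the highest for Itgb5 (0.855) and Col3a1 (0.961) and the lowest for the ratio of Tgfb1 to Tgfb2 (0.907).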

How the results depend on the processing

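No paired analysis was possible because the labels and count columns carry no rat or replicate number shared between the groups. Tgfbr2, Tgfbr3 and Smad3 were higher in Sirt6-KD under each of the 18 alternatives run, and Smad3 and Tgfbr3 lost their call only with glmTreat against a fold of 1.5 (adjusted p = 0.0503 and 0.0588) and with scaling by spike-in counts (0.0711 and 0.0783). Scaling by spike-ins left 0 genes called in every list and moved Sirt6 to -0.36 and Tgfb1 to 0.62. With glmTreat 0 genes were called, except 1 TGF-β induced gene higher and 3 lower. Tgfb2 turned positive with upper-quartile factors (0.0054), no filter (0.0076), limma-voom (0.11), spike-in rows removed (0.00027), spike-in scaling (0.83) and without S4, S5, S6 or S7 (0.54, 0.013, 0.092, 0.10), in a range from -0.31 to 0.54 with 1 library left out. Tgfb3 turned negative without S1 and S2 (-0.26), S1 (-0.015) or S8 (-0.045), in a range from -0.045 to 0.69, and Ltbp1 without S1 and S2 (-0.036). With no fold minimum 2 genes each were called lower in latency and activation and among SMADs and partners. DESeq2 and limma-voom each called 2 genes of latency and activation higher. Pmepa1, the SMAD partner called lower, left that count at 0 with RLE or upper-quartile factors, no filter, limma-voom, spike-in rows removed, and without S1 and S2. In that last setting 0 receptors and 3 TGF-β induced genes were called higher, and the log2 differences of Tgfb1/Tgfb3, Tgfb2/Tgfb3 and Ltbp2/Tgfb1 were -0.12, 0.20 and 0.62. The causes were not tested. With 1 library left out, counts called higher ran from 2 to 5 for the 10 genes, 0 to 4 for latency and activation, 0 to 1 for receptors, 2 to 5 for SMADs and partners (0 to 3 lower) and 2 to 10 for TGF-β induced genes, and the Tgfb2/Tgfb3 difference from -0.37 to 0.025. Depth limited none of the 10 genes.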
